A study of Mus musculus with 7 samples.

Results

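Non-cardiomyocytes (non-CMs) of the mouse heart were compared between 3 early embryonic stages (E10.5, E11.5 and E12.5) and 3 mid-fetal stages (E14.5, E15.5 and E16.5). The cells were wild-type cells of 2 strains, the outbred CD1 and the inbred C57BL/6, profiled by single cell RNA-seq. A cell was taken when its stage was one of the 6, its annotated type was neither atrial CM, ventricular CM nor blood, and its first annotation label did not mark it for exclusion. This left 5680 of the 52881 wild-type cells, namely 816 early and 1668 mid-fetal cells of CD1 and 1245 early and 1951 mid-fetal cells of C57BL/6. The hearts were split into the atria of the left (LA) and right (RA) side and the ventricles of the left (LV) and right (RV) side, and each stage and zone was 1 sample made from several pooled embryos. The atrioventricular canal and the ventricular septum went with the LV samples. The samples of each strain were tagged with MULTI-seq barcodes, in which a lipid-anchored DNA oligo marks all cells of a sample, and were run together, in 5 wells for CD1 and 4 wells for C57BL/6. No gene values were used, so the annotated types could not be checked against their markers here.

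By the markers of the annotation, endocardial endothelial cells (Endo_ECs, *Npr3*) line the heart chambers, and vascular endothelial cells (Vas_ECs, *Fabp4*) form the coronary vessels. Pericytes (*Pdgfrb*) and smooth muscle cells (SMCs, *Myh11*) are the mural cells that wrap those vessels. Epicardial cells (Epis, *Wt1*, *Tbx18* and *Aldh1a2*) cover the outer surface of the heart, and part of them is known to leave the surface and give rise to fibroblasts and mural cells. The cells called fibroblast-like (Fb_like, *Postn*) can also hold cushion mesenchyme of the forming valves, which descends from the endocardium. Macrophages (*Adgre1*) first enter the heart from the yolk sac and later from the fetal liver. The coronary plexus spreads over and into the ventricular wall between the early and the mid-fetal window.

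The share of a type was computed among all non-CMs of a sample with at least 20 such cells, and the shares of a stage's zones were averaged. The stage was the unit of the tests, since the cells of a stage come from 1 pool of embryos. With 3 stages against 3 in 1 strain, an exact permutation test cannot give a p below 0.1, so calls rest on both strains together, with stages permuted within each strain (400 arrangements, smallest p of 0.005) and Benjamini-Hochberg adjustment over the 7 types. Early samples were smaller, and of the 48 samples 38 passed the minimum: 9 of 12 early and 12 of 12 mid-fetal samples in CD1, and 7 of 12 and 10 of 12 in C57BL/6. Of the 10 samples left out, 9 were atrial. The early means therefore weigh the ventricles more than the mid-fetal means do, and beside each result its value in the ventricles alone (cells of LV and RV pooled per stage) is given, where all 6 stages of each strain held 60 or more cells. Of the mid-fetal stages, C57BL/6 E14.5 had both atria left out (18 and 9 cells), so its means over zones hold ventricles only. The same holds for the early stages CD1 E10.5 (6 and 17 cells) and C57BL/6 E11.5 (10 and 17 cells).

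Of the 7 types, 3 rose between the early and the mid-fetal stages in the mean of the strains (42.9% of the types tested) and 2 fell (28.6%). Vas_ECs, pericytes and macrophages rose, and Epis and Endo_ECs fell. In CD1, 4 types had every mid-fetal stage above every early stage (57.1%) and 2 had every mid-fetal stage below (28.6%). In C57BL/6 these were 3 types (42.9%) and 1 type (14.3%). With ventricles alone, 4 types rose (57.1%), SMCs being the fourth, and 2 fell (28.6%).

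**Figure D1:**
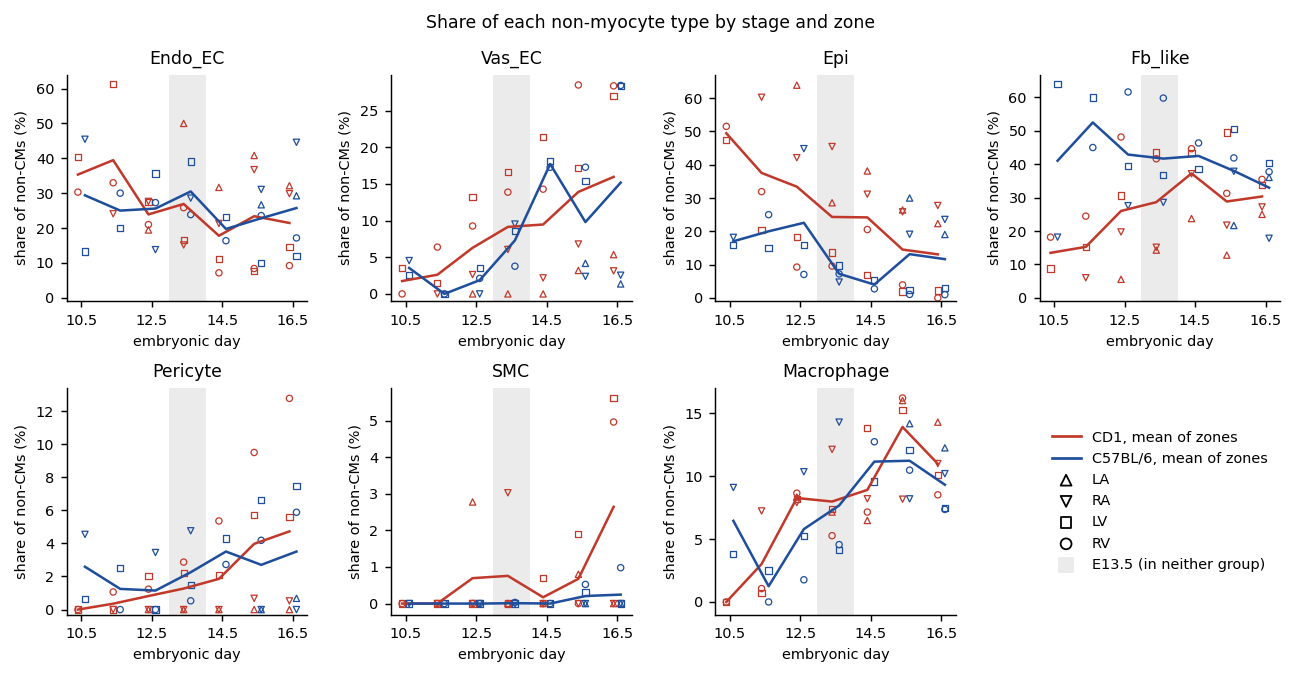
Share of each type among non-CMs (%, y axis) by embryonic day (x axis) in CD1 (red) and C57BL/6 (blue); lines are means over zones and symbols are single samples with at least 20 cells. Vas_ECs stood at 1.75 to 6.29% in CD1 and 0 to 3.54% in C57BL/6 before the grey E13.5 band, and at 9.46 to 15.96% and 9.80 to 17.7% after it.

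Vas_ECs showed the clearest rise. In CD1 their share was 1.75% at E10.5, 2.61% at E11.5 and 6.29% at E12.5, and then 9.46% at E14.5, 13.9% at E15.5 and 15.96% at E16.5. In C57BL/6 it was 3.54%, 0% and 1.87% at the early stages and 17.7%, 9.80% and 15.2% at the mid-fetal stages. The means of CD1 E10.5 and of C57BL/6 E11.5 and E14.5 hold ventricles only, since both atria were below the minimum. Early and mid-fetal stages did not overlap in either strain. The mean share went from 3.55% ± 2.41 (SD, n = 3 stages) to 13.1% ± 3.32 in CD1 and from 1.80% ± 1.77 to 14.2% ± 4.04 in C57BL/6, each with p = 0.1 in the exact permutation test within the strain. Over both strains the rise was 11.0 percentage points (exact permutation test, adjusted p = 0.00875). The change was positive in 7 of the 7 combinations of strain and zone that had a value, from 0.196 to 19.9 points. The atrial values among these rest on few early Vas_ECs.

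The rise of Vas_ECs lay in the ventricles. In the pooled ventricles of CD1, Vas_ECs were 2 of 90 non-CMs at E10.5, 8 of 231 at E11.5 and 28 of 260 at E12.5, against 47 of 257, 69 of 284 and 64 of 230 at E14.5 to E16.5, or 2.22%, 3.46% and 10.8% against 18.3%, 24.3% and 27.8%. In C57BL/6 they were 5 of 177, 0 of 60 and 24 of 910 early, and 74 of 413, 84 of 523 and 77 of 271 later. The 0 of 60 cells at E11.5 allow a share of up to 5%. The ventricular rise was 18.5 points in the mean of the strains (exact permutation test, adjusted p = 0.0117), with 17.99 points in CD1 and 19.0 in C57BL/6. In the pooled atria the share stayed low, between 1.24 and 5.15% in the mid-fetal stages of both strains, and its change was 0.458 points (exact permutation test, p = 0.765). That change is the mean of opposite signs, -0.711 points in CD1 and 1.63 points in C57BL/6. Early atria held few cells (23 to 112 per stage), with 7 Vas_ECs in all.

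The difference between chambers was tested on the atrial minus the ventricular share of each stage. With the sample minimum, 2 early and 3 mid-fetal stages of CD1 and 2 and 2 of C57BL/6 had both kinds of chamber, and the atrial minus the ventricular change of Vas_ECs was -15.9 points (exact permutation test, p = 0.0167, the smallest that 60 arrangements allow), which missed the threshold after adjustment over 7 types (adjusted p = 0.117). With the cells of both atria and of both ventricles pooled, which let all 12 stages in, the difference was -18.02 points (exact permutation test, adjusted p = 0.0175). For pericytes the corresponding differences were -7.55 points (adjusted p = 0.117) and -6.99 points (adjusted p = 0.0175) in the same exact permutation tests.

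**Figure D2:**
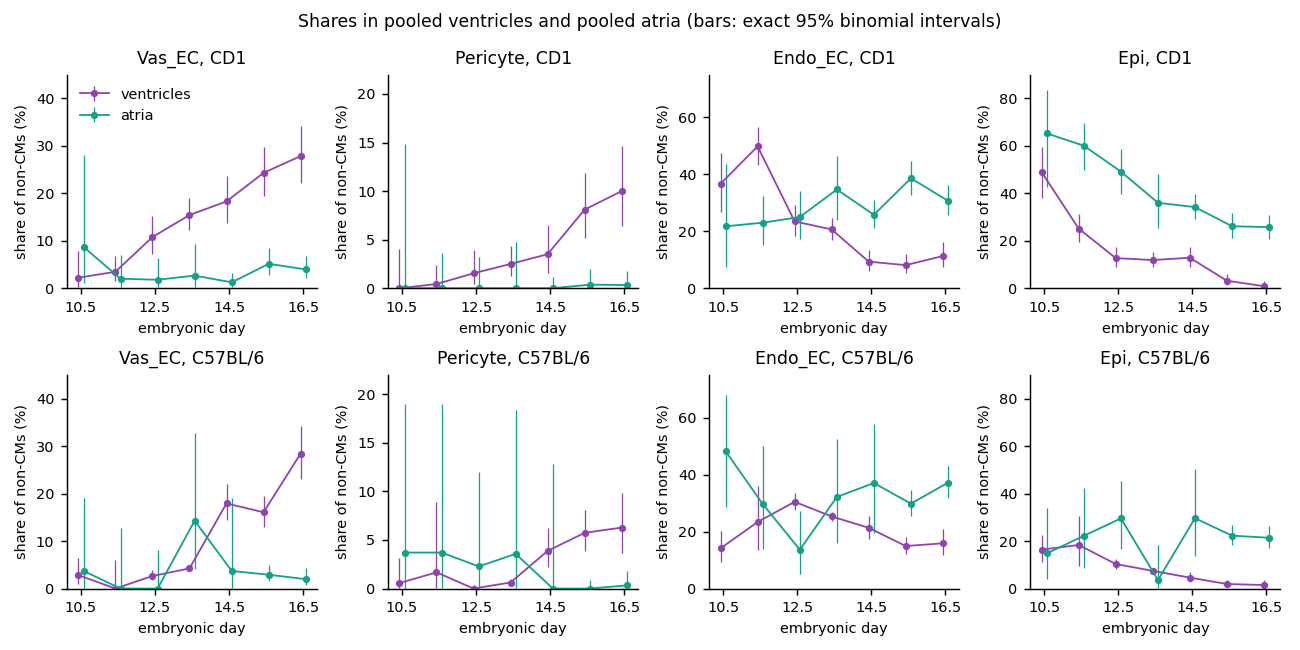
Share of Vas_ECs, pericytes, Endo_ECs and Epis among non-CMs (%, y axis) by embryonic day (x axis) in pooled ventricles (purple) and pooled atria (green) of CD1 (upper row) and C57BL/6 (lower row), with exact 95% binomial intervals for counting error. Ventricular Vas_ECs reached 27.8% and 28.4% at E16.5, while atrial Vas_ECs were 3.96% and 1.97%.

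Endo_ECs fell as a share of non-CMs, with a call that depended on the processing. By the mean over zones their share in CD1 was 35.3%, 39.5% and 23.9% at the early stages and 17.8%, 23.4% and 21.5% at the mid-fetal stages. In C57BL/6 it was 29.4%, 25% and 25.6%, then 19.7%, 22.8% and 25.7%, so that the highest mid-fetal stage lay above 2 of the early ones. The share fell by 7.96 points over both strains (exact permutation test, adjusted p = 0.028), and 9 of 14 alternatives ended or turned this call. So did leaving out CD1 E14.5, E15.5 or E16.5 or C57BL/6 E14.5, with changes of -7.19 to -8.59 points (exact permutation test, adjusted p of 0.063 to 0.0875). In the ventricles of CD1 the share was 36.7%, 49.8% and 23.5% early and 9.34%, 8.10% and 11.3% later, and over both strains the ventricular share fell by 16.2 points (exact permutation test, adjusted p = 0.0233). The ventricular values of C57BL/6 were 14.1%, 23.3% and 30.4% early and 21.3%, 14.9% and 15.9% later, which overlap. The atrial share of CD1 was 21.7 to 25% early and 25.8 to 38.6% later. The atrial change exceeded the ventricular one by 22.2 points (exact permutation test, adjusted p = 0.194) with the sample minimum and by 22.5 points (adjusted p = 0.077, same test) with pooled chambers.

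Among endothelial cells alone the balance moved from the chamber lining to the vessels. The Vas_EC share of all ECs was 8%, 6.18% and 23.9% at the early stages of CD1 and 35.5%, 42.4% and 41.0% at the mid-fetal stages. In C57BL/6 it was 16% at E10.5 and 8.07% at E12.5, with too few ECs per sample at E11.5, and 47.7%, 30.9% and 35.6% later. The rise was 26.5 points over both strains (exact permutation test, adjusted p = 0.015 over 3 ratios), and 48.9 points in the ventricles (adjusted p = 0.0075, same test). Without C57BL/6 E14.5 the former was 24.1 points, with p = 0.0167 and an adjusted p of 0.05 in the exact permutation test. That p is the smallest the remaining stages allow, so the lost call does not show that the rise depended on E14.5. In cells of all zones, there were 16.6 Vas_ECs per 100 Endo_ECs early and 59.3 later in CD1, and 8.75 and 55.8 in C57BL/6.

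Mural cells were rare at the early stages. Pericytes were 0%, 0.355% and 0.819% of CD1 non-CMs at E10.5 to E12.5, and 1.86%, 3.97% and 4.73% at E14.5 to E16.5. In C57BL/6 they were 2.59%, 1.25% and 1.15%, then 3.51%, 2.70% and 3.51%. The groups did not overlap in either strain, although the early cells numbered only 5 in each. The mean rise was 2.35 points (exact permutation test, adjusted p = 0.00875). On the centred log2 ratio scale, which sets each type against the others of its sample, the change was 0.44 and the call was lost (exact permutation test, adjusted p = 0.373). In the ventricles it was 5.55 points (exact permutation test, adjusted p = 0.0117), from 0 to 1.54% of cells at the early stages of CD1 to 3.50 to 10.0% later, and from 0 to 1.67% to 3.87 to 6.27% in C57BL/6. At C57BL/6 E12.5, 0 of 910 ventricular non-CMs were pericytes, which allows up to 0.330%. Early atria of C57BL/6 held 1 pericyte at each stage, among 27, 27 and 44 cells, and those of CD1 held none. Mid-fetal atria held 3 pericytes in all, 2 in CD1 and 1 in C57BL/6.

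SMCs were fewer still. There were 2 early and 16 mid-fetal SMCs in CD1, and 0 and 4 in C57BL/6. Their ventricular share in CD1 was 0% at all early stages, with limits of 3.33%, 1.30% and 1.15%, and 0.389%, 0.704% and 5.22% later, so that 12 of the 15 ventricular cells came from E16.5. The change was 0.542 points by the mean over zones (exact permutation test, adjusted p = 0.163) and 1.24 points in the ventricles (adjusted p = 0.0233, same test). Pericytes and SMCs together made up 4.17 to 15.1% of the mural and Fb_like cells of mid-fetal CD1 samples, and 2.08 and 4.38% at the early stages with a value. In C57BL/6 the ratio was 0.980%, 4% and 0% early and 7.78%, 5.54% and 8.22% later. It rose by 6.55 points over both strains (exact permutation test, adjusted p = 0.03), and by 13.4 points in the ventricles (adjusted p = 0.01, same test). Leaving out any 1 of CD1 E15.5 or E16.5 or C57BL/6 E10.5, E12.5 or E14.5 ended the call by the mean over zones, with rises of 5.49 to 6.40 points and adjusted p of 0.05 to 0.055 in the exact permutation test.

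Pericytes were also set against Vas_ECs, whose vessels they cover. Over all zones there were 11.4 pericytes per 100 Vas_ECs at the early stages of CD1 (5 and 44 cells) and 27.1 at the mid-fetal stages (57 and 210 cells). The pericyte share of both types was 10.2% (exact 95% interval 3.397 to 22.2%) early and 21.3% (16.6 to 26.8%) later. In C57BL/6 the numbers per 100 Vas_ECs were 16.7 (5 and 30 cells) and 25.2 (64 and 254 cells). By stage, the pericyte share of both types in CD1 was 0%, 9.09% and 11.8% early, on 4 to 34 cells, and 15%, 22.4% and 24% later, without overlap. That of C57BL/6 was 25% (2 of 8 cells), 100% (2 of 2 cells) and 4% (1 of 25 cells) early and 17.6%, 23.8% and 17.8% later, which overlap. The change of this share was not tested over stages.

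Epis fell as a share of non-CMs. In CD1 they were 49.4%, 37.5% and 33.4% at the early stages and 24.2%, 14.52% and 13.1% at the mid-fetal stages. In C57BL/6 they were 17.002%, 20% and 22.6%, then 4.004%, 13.1% and 11.6%. The means of CD1 E10.5 and of C57BL/6 E11.5 and E14.5 hold ventricles only. No mid-fetal stage reached an early one in either strain. The mean went from 40.1% ± 8.33 (SD, n = 3 stages) to 17.3% ± 6.04 in CD1 and from 19.9% ± 2.78 to 9.60% ± 4.90 in C57BL/6, and over both strains the share fell by 16.6 points (exact permutation test, adjusted p = 0.00875). All 7 combinations of strain and zone with a value had a lower mid-fetal share, with changes of -34.9 to -10.2 points. The LA of C57BL/6 had no early value, and its RA rested on early samples of 22 and 29 cells. With all atrial cells pooled, the Epi share of C57BL/6 changed by 2.23 points.

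Ventricular Epis were rare by E16.5. Of CD1 ventricular non-CMs, 48.9%, 25.1% and 12.7% were Epis at E10.5 to E12.5, and 12.8%, 3.17% and 0.870% at E14.5 to E16.5, so that E12.5 and E14.5 overlapped by a small margin. In C57BL/6 the shares were 16.4%, 18.3% and 10.3%, then 4.60%, 1.91% and 1.48%, or 4 of 271 cells at E16.5. The ventricular share fell by 17.8 points (exact permutation test, adjusted p = 0.0175). In the atria the strains gave different values. CD1 had 65.2%, 60% and 49.1%, then 34.2%, 26.1% and 25.7%, while C57BL/6 had 14.8%, 22.2% and 29.5% and then 29.6%, 22.3% and 21.4%. The strain difference of the atrial change (CD1 minus C57BL/6) was -31.7 points (exact permutation test, p = 0.035, adjusted p = 0.122), on 27, 27 and 44 early atrial cells of C57BL/6.

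The Epi call by the mean over zones was lost when cells with an unsettled annotation were left out. In CD1, 55 of the 59 Epis at E10.5 and 6 of the 118 at E11.5 had a first label that marked them as unsure valve cells before they were placed with the Epis, against 0 of 88 at E12.5 and 0 of 303 at the mid-fetal stages. The 61 such cells had a median of 24995 UMIs (unique transcript molecules), against 12308 in the other early CD1 Epis. Label and stage went together here, since 55 of the 61 came from E10.5, where all CD1 non-CMs had a median of 20440. Within E11.5 the medians were 18162 UMIs in the 6 unsure Epis and 13266 in the others. In C57BL/6 no Epi carried such a label. With every provisionally labelled cell left out, which removed 23.5% of early and 1.98% of mid-fetal non-CMs of CD1 and 9.40% and 6.77% of those of C57BL/6, the early Epi shares of CD1 were 4.55%, 42.0% and 35.9%. The change was then -10.2 points (exact permutation test, adjusted p = 0.196) by the mean over zones, and -12.3 points in the ventricles (exact permutation test, adjusted p = 0.0292). Few cells of CD1 E10.5 were left after this removal: its ventricles held 28 non-CMs, 1 of them an Epi. With all labels kept and each stage left out in turn, CD1 E10.5 included, the call held. The changes were then -18.3 to -14.2 points (exact permutation test, adjusted p of at most 0.0233). Counted among all cells, CMs included, Epis changed by -3.42 points (exact permutation test, adjusted p = 0.114).

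**Figure D3:**
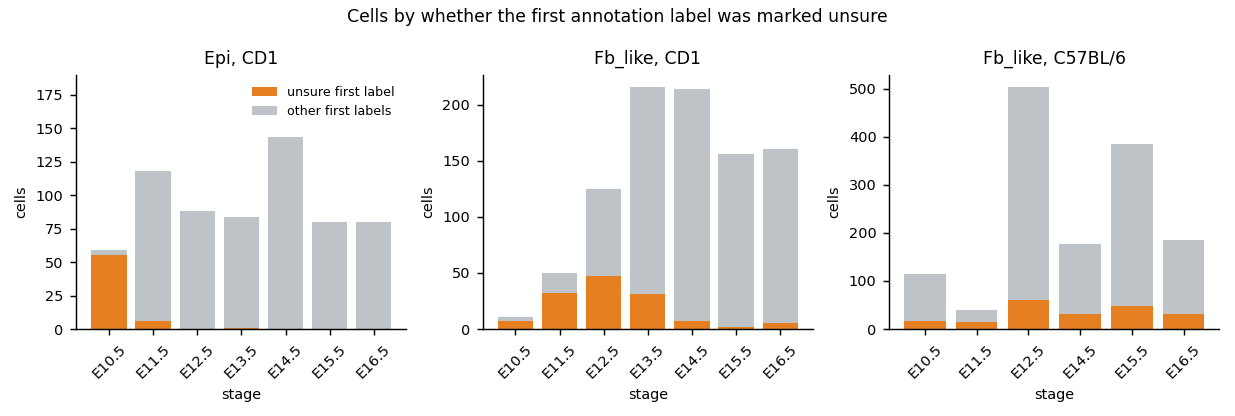
Number of cells (y axis) at each stage (x axis) whose first annotation label was marked unsure (orange) or not (grey), for Epis and Fb_like cells of CD1 and for Fb_like cells of C57BL/6 (E13.5 is not drawn in the last panel, and 2 mid-fetal C57BL/6 cells first labelled as schwann cells count as unsure). At E10.5, 55 of 59 CD1 Epis were orange.

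The change of Fb_like cells as a share of non-CMs had opposite signs in the strains, which depended on the denominator. In CD1 their share was 13.48%, 15.3% and 26.01% at the early stages and 37.2%, 28.8% and 30.3% at the mid-fetal stages, with no overlap. In C57BL/6 it was 41.1%, 52.5% and 42.9%, then 42.5%, 38.0% and 33.0%. The change was 13.9 points in CD1 and -7.65 points in C57BL/6, and their mean of 3.12 points did not pass the test (exact permutation test, adjusted p = 0.505). The change of CD1 exceeded that of C57BL/6 by 21.5 points (exact permutation test, p = 0.01), which missed the threshold over 7 types (adjusted p = 0.07). Pool, wells, sequencing platform (HiSeq X for CD1, NovaSeq for C57BL/6) and annotation all differed between the strains. In every strain difference given here, strain cannot be told apart from these. No type passed the test of the strain difference (0% of the 7), and Fb_like cells were the one type with an unadjusted p under the threshold. With blood cells in the denominator the change in C57BL/6 was 3.29 points and the strain difference 12.97 points (exact permutation test, adjusted p = 0.548). As a share of all cells they were 1.01 and 5.36 points (exact permutation test, adjusted p = 0.925).

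By the mean over zones the strains stood furthest apart at E11.5, and in the pooled ventricles at E10.5. The means over zones hold unlike chambers at these stages. At E11.5 they hold RA, LV and RV in CD1 but only LV and RV in C57BL/6. At E10.5 they hold LV and RV in CD1 but LV and RA in C57BL/6. Ventricular Fb_like cells of CD1 were 11 of 90 cells (12.2%, exact 95% interval 6.26 to 20.8%) at E10.5, 19.0% at E11.5 and 41.5% at E12.5. In C57BL/6 they were 108 of 177 (61.0%, 53.4 to 68.2%), 55.0% and 53.3%. From E14.5 to E16.5 the ventricular shares were 44.0%, 38.0% and 34.8% in CD1 and 40.7%, 47.4% and 38.4% in C57BL/6. The early Fb_like cells of the strains also differed in first labels: 85 of 186 in CD1 were first labelled as unsure valve cells, and 0 of 658 in C57BL/6, where 91 were first labelled unsure without that word. Of the 85, 41 came from the RV at E12.5. Without provisionally labelled cells the strain difference was 36.8 points by the mean over zones (exact permutation test, adjusted p = 0.035). The ventricles of CD1 E10.5 then held only 28 non-CMs.

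The balance of Epis to Fb_like cells was measured among these types alone. In CD1, Epis were 79.1%, 68.2% and 53.4% of both types at the early stages and 38.1%, 34.1% and 25.97% later. In C57BL/6 they were 19.8%, 20% and 33.6%, then 8.79%, 24.6% and 25.2%, which overlap. The Epi part fell by 19.6 points over both strains (exact permutation test, adjusted p = 0.03 over 3 ratios), with -34.2 points in CD1 and -4.92 points in C57BL/6. In the ventricles alone it fell by 28.7 points (exact permutation test, adjusted p = 0.0075), and there the stages did not overlap in either strain. By the mean over zones the call was lost without CD1 E14.5, E15.5 or E16.5 or C57BL/6 E10.5, E12.5 or E14.5, with changes of -16.9 to -20.9 points (exact permutation test, adjusted p of 0.05 to 0.06).

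**Figure D4:**
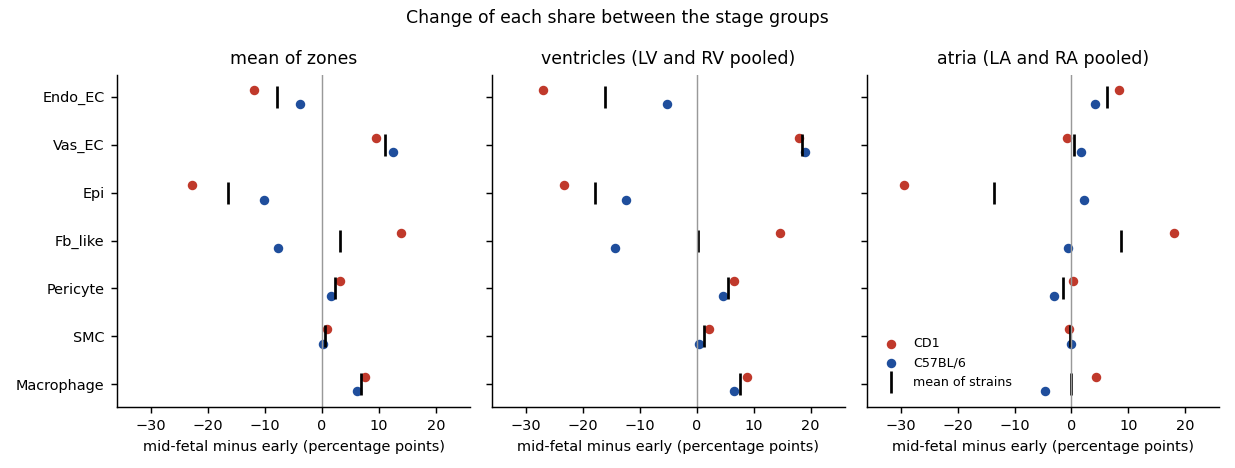
Change of each share between the stage groups (mid-fetal minus early, percentage points, x axis) for the 7 types (y axis), by the mean over zones, in pooled ventricles and in pooled atria; dots are strains and bars their mean. Vas_ECs lie at 17.99 and 19.0 points in the ventricles and near 0 in the atria, and Fb_like dots lie on both sides of 0 by the mean over zones.

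Macrophages rose in both strains. In CD1 they were 0%, 3.01% and 8.26% of non-CMs at the early stages and 8.90%, 13.9% and 11.0% at the mid-fetal stages. In C57BL/6 they were 6.44%, 1.25% and 5.79%, then 11.1%, 11.2% and 9.31%. The lowest mid-fetal stage stood just above the highest early one in CD1, at 8.90 against 8.26%. The rise was 6.79 points (exact permutation test, adjusted p = 0.00875), and 7.66 points in the ventricles (adjusted p = 0.0117, same test). The atria gave a change of -0.143 points (exact permutation test, p = 0.965). This is the mean of opposite signs, 4.35 points in CD1 and -4.64 points in C57BL/6. The early atria of C57BL/6 held 27, 27 and 44 cells. Of the early C57BL/6 macrophages, 26 of 49 had an unsure first label, against 19 of 198 later. With samples of 10 or more cells admitted, the rise was 4.27 points (exact permutation test, adjusted p = 0.105). Other immune cells were few: the largest group was neutrophils of mid-fetal C57BL/6, with 29 cells.

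E13.5, which belongs to neither group, lay between them for most types in CD1, with 9.14% Vas_ECs, 24.3% Epis, 1.27% pericytes and 28.7% Fb_like cells. In C57BL/6, where this stage held 3570 non-CMs, 3204 of them from the RV, the pooled ventricles had 4.23% Vas_ECs and 0.621% pericytes, below every mid-fetal stage. The distance between neighbouring stages, taken as the share of ventricular cells that would have to change type, was 39.6% from E11.5 to E12.5 in CD1 against 6.78 to 23.8% at its other steps. In C57BL/6 the longest step was E13.5 to E14.5, at 23.8% against 8.02 to 14.2%. These distances have no replicate check.

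The mixture of types was more even at the mid-fetal stages. The effective number of types, the exponential of the Shannon entropy of the shares, was 2.88, 3.51 and 4.69 in early CD1 ventricles and 4.83, 5.18 and 5.27 in mid-fetal ones. In C57BL/6 it was 3.18, 3.05 and 3.15, then 4.76, 4.63 and 4.68. Larger samples show more rare types, and this was not corrected. In the ventricles of CD1 the most common type was the Epi at E10.5, the Endo_EC at E11.5 and the Fb_like cell from E12.5 on. In C57BL/6 it was the Fb_like cell at every stage, at 61.0% at E10.5 and 38.4% at E16.5.

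Depth per cell moved with the stage groups. The median UMI count of non-CMs was 20440, 12849 and 10440 at the early stages of CD1 and 9517, 7836 and 8130 at the mid-fetal stages, and 14192, 9327 and 11111, then 9288, 9106 and 8880, in C57BL/6. It fell by 4267 UMIs over both strains (exact permutation test, adjusted p = 0.01 over 4 groups of cells). In Epis it fell by 7026 UMIs (exact permutation test, adjusted p = 0.01). The change was -2583 UMIs in Fb_like cells and -2481 in Endo_ECs (exact permutation test, adjusted p = 0.09 and 0.0667). Detected genes fell by 824 per cell in all non-CMs (exact permutation test, adjusted p = 0.01). Early and mid-fetal cells of a strain shared the same wells. The part of depth in the annotated shares was not tested. With only cells of 4000 or more UMIs and at most 20% mitochondrial UMIs, Vas_ECs rose by 10.9 points and Epis fell by 17.4 points (exact permutation test, adjusted p = 0.00875 each), while Endo_ECs changed by -5.57 points (adjusted p = 0.233).

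**Figure D5:**
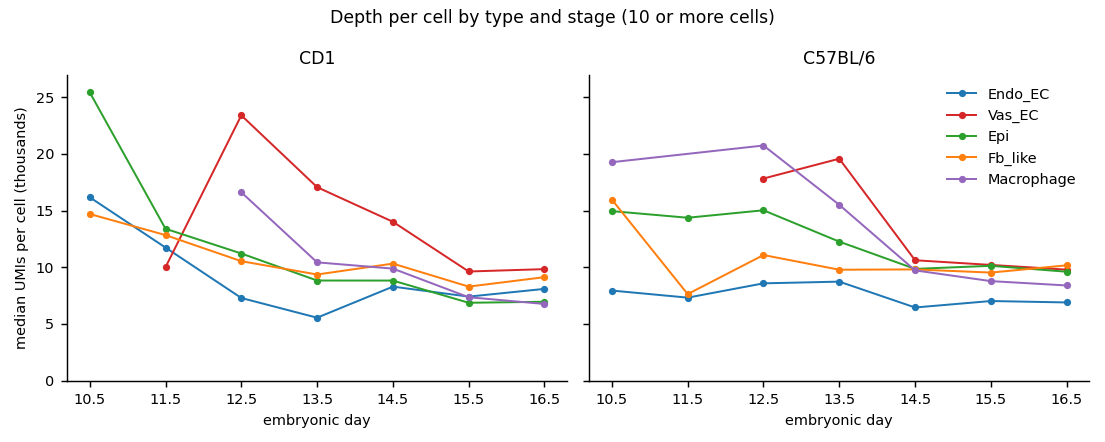
Median UMIs per cell (y axis, in units of 1000) by embryonic day (x axis) for the 5 larger types in CD1 (left) and C57BL/6 (right), where a type had at least 10 cells. CD1 Epis went from 25430 at E10.5 to 6952 at E16.5, and C57BL/6 macrophages from 19267 to 8389.

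Beside depth and detected genes, the ribosomal and mitochondrial shares of UMIs changed within some types. The share of UMIs from ribosomal protein genes rose in Fb_like cells, from 15.45%, 17.4% and 19.2% to 20.8%, 20.01% and 19.995% in CD1 and from 18.6%, 17.7% and 19.6% to 22.4%, 23.4% and 21.5% in C57BL/6. The rise was 3.37 points (exact permutation test, adjusted p = 0.02). In Epis the change was -3.17 points (exact permutation test, adjusted p = 0.07). The mitochondrial share rose by 1.29 points in Epis (exact permutation test, adjusted p = 0.04) and changed by -0.252 points over all non-CMs (p = 0.665, same test).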

How the data were processed

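The total UMI counts and numbers of detected genes per cell were deposited by the authors without normalization. Mitochondrial and ribosomal protein UMIs were deposited as a percent of each cell's UMIs, and a hybrid doublet score was deposited for each cell. The authors used Cell Ranger 3.1.0 on GRCm38.p4, assigned cells to samples by MULTI-seq barcode, removed doublets between and within samples, filtered cells on depth and mitochondrial share, and annotated clusters in Seurat. The deposited tables also carry each cell's stage, zone, first label and final type. Of the columns of both tables, 100 were not used. Among the 5680 cells, 0 cell barcodes occurred in more than 1 well.

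Shares, exact two-sided permutation tests and Clopper-Pearson 95% intervals were computed in Python 3.11.15 with numpy 2.4.6, scipy 1.17.1 and pandas 2.3.3, and tested on simulated data. Intervals, and limits of 3 counts for a count of 0, cover counting error only. Stages are single pools, so p-values measure the spread between stages. The members, types and tests were chosen with earlier results of these data known. Pooled ventricles and atria, the removal of provisional labels and wells with zones pooled were added after seeing the data. By rule, the 7 types are named with their annotation markers and no other gene. The 26 early and 18 mid-fetal C57BL/6 cells marked for exclusion were left out.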

Additional observations from a re-analysis of the deposited data

Results flagged for a closer look

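The change of the Fb_like share in CD1 minus that in C57BL/6 was 21.5 points, which was picked out by its unadjusted p in the exact permutation test (p = 0.01) and missed the threshold after adjustment (adjusted p = 0.07). The change of the Vas_EC share in atria minus that in ventricles was -15.9 points and that of the pericyte share -7.55 points. Both were picked out by the unadjusted p of the exact permutation test (p = 0.0167 and p = 0.0333) and missed the threshold after adjustment (adjusted p = 0.117 for each).

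Among early CD1 samples, the LV at E11.5 stood apart from the other 8 with 61.3% Endo_ECs, and the LA at E12.5 with 2.78% SMCs, which is 1 of 36 cells. In the changes by well, the CD1 well labelled a5k3 stood apart from the other 4 with -0.277 points for pericytes, and the C57BL/6 well labelled B6L1 from the other 3 with -9.54 points for Endo_ECs. In all, 35 groups were searched for a sample standing apart and 4 were found. Chance gives about 1 in 20 for normally distributed values, which the SMC shares, 0 in the other 8 samples, were not. The 12 mid-fetal samples of CD1 were not searched.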

How the results depend on the processing

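The rise of Vas_ECs over both strains passed the test under 14 of 14 alternatives, those of pericytes and macrophages under 13 of 14 each and the fall of Epis under 11 of 14. All values are changes in percentage points unless stated, the cause of each shift was not tested, and the alternatives on ventricles, pooled chambers, provisional labels and wells with zones pooled were chosen after seeing the data. No paired analysis was possible because stages carry no replicate numbers that link samples across groups. Wells a5k2 and a5k3 alone held too few cells by zone, and the mural ratio of CD1 had no value without provisional labels. Early atrial values rest on few cells.

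In the mean of the strains, the Endo_EC change no longer passed with zones pooled (-6.35), minimum 10 (-4.58) or 50 cells (-6.91), blood in the denominator (-0.703), excluded cells kept (-5.83), the UMI and mitochondrial filter (-5.57), the highest doublet scores left out (-6.96) and provisional labels left out (-12.6), and turned to 1.37 as a share of all cells. Epis no longer passed with minimum 50 (-11.4), as a share of all cells (-3.42) and without provisional labels (-10.2), macrophages with minimum 10 (4.27), and pericytes as a centred log2 ratio (0.44). SMCs passed with minimum 50 (0.658), in ventricles (1.24) and in ventricles without provisional labels (1.28), and turned to -0.66 as a centred log2 ratio. Fb_like cells turned with zones pooled (-0.798), minimum 50 (-3.11), the UMI filter (-1.11) and doublet scores (-0.584).

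Within CD1, adding E9.5 and E17.5 let Endo_ECs (-25.3), Vas_ECs (11.2), Fb_like cells (17.3), pericytes (3.21), macrophages (9.84), the Vas_EC share of ECs (31.7) and the Epi to Fb_like ratio (-36.04) pass. Each had p = 0.0286 in the exact permutation test, which 3 stages against 3 cannot reach whatever their values. E9.5 of CD1 held 93 non-CMs. Turned values in CD1 were Endo_ECs as a share of all cells (1.23), SMCs as a centred log2 ratio (-0.33) and in well a10k with zones pooled (-0.138), Fb_like cells in wells a10k (-1.32) and a5k1 (-0.329), macrophages in wells a5k2 (-4.11) and a5k3 (-0.684) and pericytes in well a5k3 (-0.277), the last 3 with zones pooled. In C57BL/6, Endo_ECs turned with minimum 50 (0.372), blood (3.53), all cells (1.51), excluded cells kept (0.361), the UMI filter (1.18), doublet scores (1.26), without provisional labels (2.03), and in wells B6L2 (2.62 with zones pooled, 2.48 by zone), B6L3 (1.58 and 0.707) and B6L4 (0.706 and 4.51). Fb_like cells turned with blood (3.29) and all cells (1.01), and SMCs as a centred log2 ratio (-1.0005).

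For CD1 minus C57BL/6, Fb_like cells passed with minimum 10 (23.6), E9.5 and E17.5 (26.3), doublet scores (29.9), and without provisional labels in all zones (36.8) and in ventricles (35.1), but were 12.97 with blood in the denominator and 5.36 as a share of all cells. Only CD1 had cells of E9.5, so that alternative set unlike early stages of the strains against each other. Turned strain differences were Epis as a share of all cells (1.16) and without provisional labels in all zones (0.571) and in ventricles (4.43), pericytes as a share of all cells (-0.253) and as a centred log2 ratio (-0.0038), and macrophages as a share of all cells (-1.69), with the UMI filter (-0.0329) and without provisional labels (-0.827). The Epi to Fb_like ratio no longer passed with zones pooled (-16.2). For atria minus ventricles, minimum 10 let Endo_ECs (24.4), Vas_ECs (-18.2), pericytes (-6.77) and SMCs (-1.90) pass and turned Epis (5.61), and pooled chambers let Vas_ECs (-18.0), pericytes (-6.99) and SMCs (-1.49) pass and turned Epis (4.21).

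With each stage left out in turn, the changes over both strains were -10.2 to -6.32 for Endo_ECs, -22.9 to -16.5 for the Epi to Fb_like ratio, 5.49 to 8.21 for the mural ratio and 24.1 to 29.3 for the Vas_EC share of ECs, and each lost its call at least once. The Vas_EC share of ECs lost its call at the smallest p that the remaining stages allow. The Epi to Fb_like ratio of C57BL/6 ranged from -7.75 to 0.465, turning without E14.5, and the macrophage strain difference from -0.439 to 3.69, turning without CD1 E10.5.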

Other observations

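Each well held cells of all stage groups, so the changes could be read within wells with zones pooled. Wells a5k1, a5k2 and a5k3 of CD1 and B6L3 of C57BL/6 had a value at only 2 of the 3 early stages. The Vas_EC share was higher at the mid-fetal stages in 5 of 5 CD1 wells (4.21 to 12.998 points) and 4 of 4 C57BL/6 wells (11.2 to 13.2 points). The Fb_like share was higher in 5 of 5 CD1 wells (5.12 to 13.03 points) and lower in 4 of 4 C57BL/6 wells (-20.1 to -5.25 points). The Epi share was lower in 5 of 5 and 4 of 4 wells. Wells differed in sign for macrophages of CD1, higher in 3 and lower in 2, for pericytes of CD1, higher in 4 and lower in 1, for SMCs of CD1, higher in 4 and lower in 1, and for Endo_ECs of C57BL/6, higher in 3 and lower in 1. In CD1, Endo_ECs were lower in 5 of 5 wells, and in C57BL/6, macrophages and pericytes were higher in 4 of 4 and SMCs in 3 of 4. Wells of a strain hold cells of the same pooled embryos and are not replicates of a stage.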
